A study of Homo sapiens with 4 samples.

Results

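The clustered replication-dependent histone genes supply the bulk of the histone proteins of dividing cells. Members were taken as all genes whose GRCh37-era symbol begins HIST1H, HIST2H, HIST3H or HIST4H, without pseudogenes, which gave 70 of the 63677 genes in the files. Of these, 61 had enough counts to be tested and 9 did not. RNA sequencing was done on H929, an established human multiple myeloma cell line, transduced with a short hairpin RNA (shRNA) that silences no gene or with an shRNA against ILF2. ILF2 encodes a protein known to act on double-stranded RNA together with partner proteins. There were 2 libraries a group, made from total RNA after depletion of ribosomal RNA. All cells thus carried a hairpin, and the labels name no time after transduction and no selection. Whether the ILF2 shRNA libraries carry the same hairpin is not given, so an effect of a hairpin or of the transduced population and an effect of ILF2 loss cannot be told apart.

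In the nucleosome, DNA is wound around a core of H2A, H2B, H3 and H4, and the linker histone H1 binds where the DNA enters and leaves. The clustered genes are switched on as cells enter S phase, when new DNA has to be packed, and their transcription takes place in nuclear bodies organised by NPAT. Their mRNAs as a rule have no introns and no poly(A) tail. Instead the 3' end is a short stem-loop, which is bound by the protein SLBP and is needed for cleavage, export, translation and the rapid decay at the end of S phase. Removal of ribosomal RNA, unlike selection on poly(A), keeps such mRNAs in the library. Replacement variants such as H2AX and H3-3B are encoded elsewhere, and most are made outside S phase too.

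The stem-loop is shown for 10 members because it is the feature that the mRNAs share whichever histone they encode. A 16-base match was found within 200 bases after the stop codon in 70 of 70 members, 22 to 67 bases after it with a median of 35. The same search on 1 strand in the first 200 bases of all 27305 RefSeq promoters matched 0.00732% of them. The 16 bases took 10 forms. The commonest, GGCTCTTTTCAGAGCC, was found in 40 members, and 15 of 15 H4 genes had a form with a GGCCCT stem. Capitals mark the 16 bases, and 5 bases are shown on each side, read 5' to 3' on the coding strand of GRCh37.
H1-3: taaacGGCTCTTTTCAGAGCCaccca
H1-4: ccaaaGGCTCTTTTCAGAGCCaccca
H1-6: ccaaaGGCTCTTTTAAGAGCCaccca
H2AC14: acaaaGGCTCTTTTCAGAGCCacttc
H2AC25: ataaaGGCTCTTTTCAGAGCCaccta
H2BC3: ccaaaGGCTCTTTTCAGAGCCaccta
H2BC12: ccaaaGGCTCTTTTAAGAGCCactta
H3C13: ctaaaGGCTCTTTTCAGAGCCactgc
H4C1: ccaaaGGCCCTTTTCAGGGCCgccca
H4C16: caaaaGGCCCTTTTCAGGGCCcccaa
The sites of H2BC3 (chr6:26043455-26043480, minus strand) and H2AC25 (chr1:228645065-228645090, minus strand) have the same 16 bases, and so do those of H4C1 (chr6:26022253-26022278, plus strand) and H4C16 (chr12:14923653-14923678, minus strand). With ILF2 shRNA, H2BC3 and H4C1 fell, and H2AC25 and H4C16 did not pass the test. A match is a description of the letters only.

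Total counts ran from 63459322 to 72977082 a library. Levels are given as CPM, the count scaled to the library size as adjusted by edgeR's TMM method. ILF2 itself fell to 15.3% of its non-silencing level (717 and 733 against 107 and 114 CPM; log2 fold change -2.71, edgeR adjusted p = 9.2e-39). Of 10 plasma cell markers, 10 were above 1 CPM in every library, and in edgeR 5 were higher with ILF2 shRNA (among them JCHAIN, MZB1 and FCRL5) and 2 lower (SDC1 and SLAMF7). Over all tested genes, 10.2% were higher and 10.1% lower. The summed level of the plasma cell markers was 12626 and 12934 against 14840 and 14959 CPM. Of 5 B cell markers only CR2 was above 1 CPM in every library, at 1.89 and 1.82 against 2.54 and 2.53 CPM (log2 fold change 0.45, edgeR adjusted p = 0.030), and CD22 had a count of 0 in all. The myeloid and stromal markers had 0 of 5 each above it. Of 5 T and NK cell markers only CD3E was above it, at 8.22 and 7.49 CPM in the non-silencing and 16.1 and 17.0 CPM in the ILF2 shRNA libraries, and the part of these markers in the results was not tested. Mitochondrial genes took 0.307% to 0.351% of counts in the non-silencing and 0.463% to 0.516% in the ILF2 shRNA libraries. Their part was not tested. With mitochondrial genes and abundant small RNAs left out together, 4.74% to 5.91% of counts, 50 histone genes were called lower and 0 higher, as with them. The submitters call the replicates independent without saying that they were transduced separately, so the p-values cover the spread of these 4 libraries, which may be technical.

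The clustered histone genes were lower with ILF2 shRNA as a group. Their summed level was 10723 and 10621 CPM with the non-silencing shRNA against 7451 and 8295 CPM with ILF2 shRNA, which is 73.8% of the non-silencing mean (10672 ± 72.5 against 7873 ± 597 CPM, SD, n = 2). In shares of all counts, the family took 1.09% and 1.07% against 0.748% and 0.805%. Both ILF2 shRNA libraries lay below both non-silencing libraries. Of the 61 tested members, 50 were called lower and 0 higher at an edgeR adjusted p under 0.05, and 11 were not called. Over all 19142 tested genes, 10.1% were called lower and 10.2% higher. At an unadjusted p under 0.05, 51 members were lower and 0 higher, against 15.4% and 15.5% of all tested genes. DESeq2 called 48 lower and 0 higher of the 59 members it tested, against 8.77% and 9.48% of all genes. The members' median log2 fold change was -0.41, with a range from -0.78 to -0.05, while the median over all tested genes was -0.0015. In 54 of 61 members both ILF2 shRNA libraries were below both non-silencing libraries, against 28.0% of all tested genes. In bulk RNA, fewer cells in S phase and less histone mRNA in each such cell cannot be told apart.

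**Figure D1:**
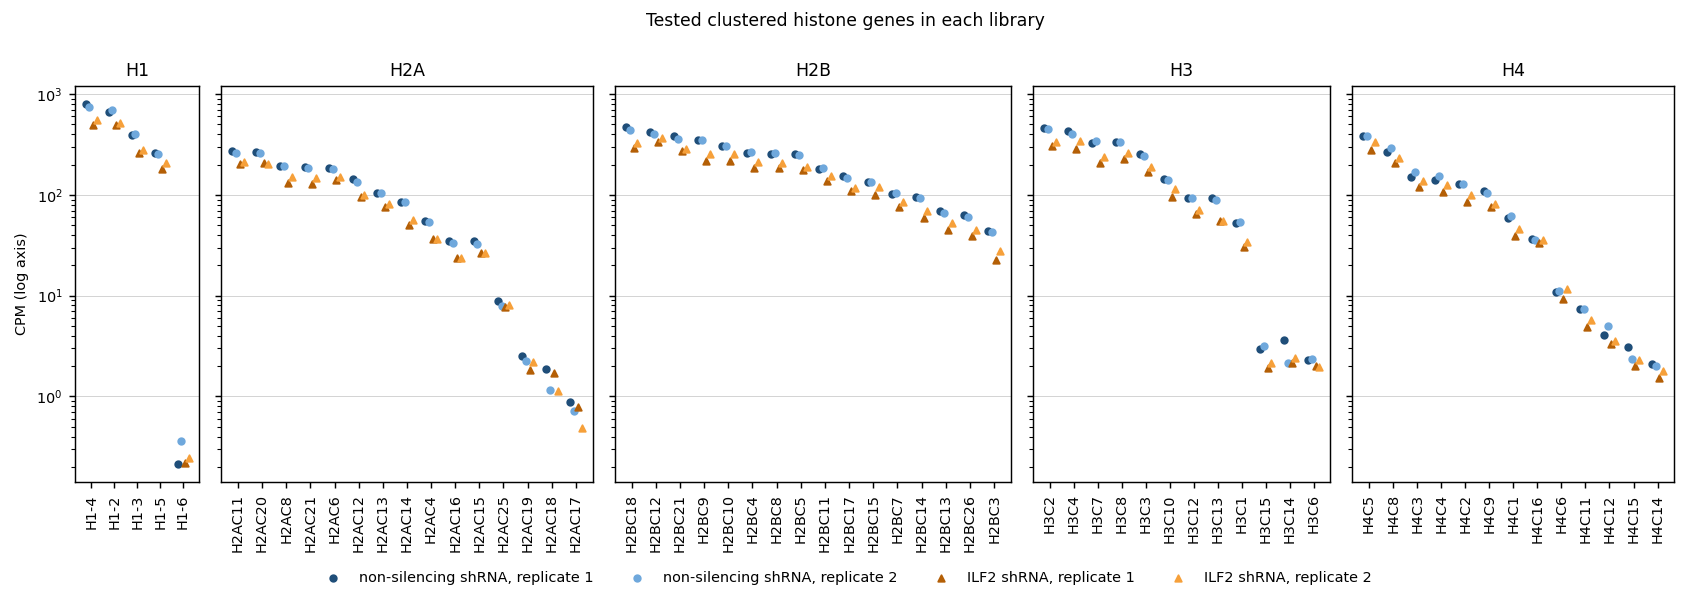
CPM (log axis) of the 61 tested members in each of the 4 libraries, by histone class and ordered by level; circles are non-silencing and triangles ILF2 shRNA libraries. In 54 of the 61 members both triangles lie below both circles, while they overlap for H4C16, H4C6, H2AC25, H3C14, H2AC18, H2AC17 and H1-6.

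The ILF2 shRNA libraries were not alike in the size of the fall. Replicate 1 was below replicate 2 in 56 of 61 tested members and in 48 of the 50 called, while non-silencing replicate 1 was below replicate 2 in 22 of 61. The log2 ratio of the family's summed level was -0.44. It was -0.52 without ILF2 shRNA replicate 2 and -0.36 without ILF2 shRNA replicate 1. The members' median log2 fold change ran from -0.49 to -0.36 when any 1 library was left out.

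The linker histones H1 fell in 4 of the 5 genes tested. H1-4, the most abundant member of the class per kb of exon, was at 789.9 and 738 CPM with the non-silencing shRNA and at 498 and 559 CPM with ILF2 shRNA. H1-3 was at 391 and 405 against 262 and 281 CPM. In both genes the groups were well apart, with log2 fold changes of -0.53 (95% interval -0.67 to -0.40; edgeR adjusted p = 9.7e-09) and -0.55 (-0.69 to -0.42; edgeR adjusted p = 2.2e-09). The other called H1 genes, H1-2 and H1-5, had log2 fold changes of -0.42 and -0.40. The testis-type gene H1-6 lay at 0.216 and 0.361 against 0.22 and 0.246 CPM, where its groups overlapped and its interval ran from -1.13 to 0.52. It became positive, at 0.11, without non-silencing replicate 2. H1-1 had 3 counts or fewer in every library and was not tested. Summed over the class, H1 stood at 2099 and 2096 CPM against 1440 and 1565 CPM.

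The start of H1-3 and of H1-4 is shown because all 6 H1 genes hold the H1 element AAACACA in their RefSeq promoter (250 bases before to 50 after the start), as against 5.76% of all promoters. The 200 bases before the start are printed. Capitals mark, on either strand, the H1 element, the CCAAT box (the letters CCAAT), the TATA element (here TATAAA) and the octamer (here ATTTGCAT).
H1-3, chr6:26235216-26235415, minus strand: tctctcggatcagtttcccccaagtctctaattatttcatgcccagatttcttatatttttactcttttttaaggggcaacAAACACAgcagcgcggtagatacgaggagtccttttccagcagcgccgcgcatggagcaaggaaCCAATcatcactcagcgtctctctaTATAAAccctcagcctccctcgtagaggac
H1-4, chr6:26156357-26156556, plus strand: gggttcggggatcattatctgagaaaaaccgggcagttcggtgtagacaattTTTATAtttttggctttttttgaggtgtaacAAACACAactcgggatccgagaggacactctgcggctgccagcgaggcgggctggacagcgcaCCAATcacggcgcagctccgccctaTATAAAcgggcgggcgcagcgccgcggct
On the coding strand of both, the H1 element, a CCAAT box and a TATA element follow each other in this order towards the start. Among the 6 H1 promoters, 6 held a CCAAT box, 3 a TATA element and 0 the octamer. H1-6, which lay below 1 CPM in every library, also held the H1 element and a CCAAT box. Its interval of -1.13 to 0.52 covers the log2 fold changes of the called H1 genes. Whether these letters go with the fall was not tested.

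The H3 genes, which form the central tetramer of the nucleosome with H4, fell in 10 of 12 tested cases, with a median log2 fold change of -0.47. Their summed level went from 2202 and 2159 CPM to 1451 and 1643 CPM, or 71.0% of the non-silencing mean. H3C13 of the HIST2 cluster, which encodes H3.2, had the smallest adjusted p of the family. It was at 92.5 and 88.2 CPM against 54.9 and 55.2 CPM with ILF2 shRNA, and replicates lay close together in both groups. Its log2 fold change was -0.72 (-0.86 to -0.57; edgeR adjusted p = 6.2e-12). Only 22.3% of the read-length windows of the H3C13 exon are found once in the genome. How far these values are those of H3C13 alone is therefore uncertain. H3C2, the most abundant H3 gene per kb of exon, was at 459 and 454 against 308 and 337 CPM, a log2 fold change of -0.50 (-0.63 to -0.37; edgeR adjusted p = 3.1e-08). H3C1, named after its values were seen, fell by 0.72 on the log2 scale, from 52.8 and 53.3 to 30.1 and 34.4 CPM.

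3 H3 genes stood at a few CPM. H3C6 was at 2.28 and 2.33 against 2.01 and 1.98 CPM, which did not overlap, yet its log2 fold change of -0.21 (-0.52 to 0.10) did not pass the test. H3C14 and H3C15 are copies whose coding sequences are identical and of which no 76-base window, the length of a read, is found once in GRCh37. H3C15 was called lower (2.93 and 3.14 against 1.91 and 2.14 CPM; log2 fold change -0.58, edgeR adjusted p = 0.0028), but not by DESeq2 (DESeq2 adjusted p = 0.054). H3C14 was at 3.67 and 2.16 against 2.17 and 2.40 CPM, where the groups overlapped, and its log2 fold change was -0.36 (-0.73 to 0.02). Without non-silencing replicate 1 it was 0.077, and with replicate 2 of that group left out it was -0.68 (edgeR adjusted p = 0.0024). H3C11 and the testis-type H3-4 had 3 counts or fewer in every library and were not tested.

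The H4 genes fell in 9 of 13 tested cases, with a median log2 fold change of -0.35. Their summed level went from 1297 and 1352 CPM to 967 and 1119 CPM, or 78.7% of the non-silencing mean. Of the 15 H4 genes, 14 have a coding sequence that translates to the same protein, yet 13 distinct coding sequences exist among the 15. Between pairs of genes the coding bases were identical at 79.2% to 100% of places, with a median of 83.7%. The first 90 coding bases are shown for 5 genes, since it is these silent differences that let reads be given to single genes. Capitals mark bases that differ from the commonest base at that place among the 14 genes of equal length.
H4C1, chr6:26021907-26021996, plus strand: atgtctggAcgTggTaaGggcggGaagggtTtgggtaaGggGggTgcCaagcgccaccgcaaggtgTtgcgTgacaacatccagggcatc
H4C6, chr6:26240654-26240743, plus strand: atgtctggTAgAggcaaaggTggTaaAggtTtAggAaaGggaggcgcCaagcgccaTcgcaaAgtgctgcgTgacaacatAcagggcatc
H4C16, chr12:14923929-14924018, minus strand: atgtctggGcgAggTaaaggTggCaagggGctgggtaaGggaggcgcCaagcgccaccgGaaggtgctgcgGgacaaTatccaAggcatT
H4C11, chr6:27791903-27791992, plus strand: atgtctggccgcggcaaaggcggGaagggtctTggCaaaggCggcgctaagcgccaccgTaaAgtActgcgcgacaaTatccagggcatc
H4C14, chr1:149804249-149804338, plus strand: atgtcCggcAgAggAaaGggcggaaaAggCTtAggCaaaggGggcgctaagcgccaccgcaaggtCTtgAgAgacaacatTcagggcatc
H4C12 is identical to H4C11 and H4C15 to H4C14 over the whole coding sequence, whereas H4C1, H4C6 and H4C16 differ from the commonest bases at 12, 15 and 13 of these 90 places. Every 76-base window of the exons of H4C1, H4C6 and H4C16 is found once in the genome.

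H4C1 was at 59.3 and 61.5 CPM against 38.7 and 45.5 CPM with ILF2 shRNA. Its log2 fold change of -0.52 (-0.67 to -0.37; edgeR adjusted p = 3.1e-07) had the smallest adjusted p among H4 genes. H4C4, the most abundant H4 gene per kb of exon, was at 139 and 153 against 106 and 124 CPM, a log2 fold change of -0.34 (-0.49 to -0.20; edgeR adjusted p = 2.5e-04). The groups did not overlap in either gene, but without non-silencing replicate 2 the adjusted p of H4C4 rose to 0.066 in edgeR. The same library decided the calls of H4C3 and H4C8 (edgeR adjusted p = 0.14 and 0.071 without it), and ILF2 shRNA replicate 1 that of H4C5, whose log2 fold change went from -0.31 to -0.17 without it (edgeR adjusted p = 0.066). These 3 genes were named after their values were seen. In the non-silencing libraries H4C5 (381 and 380 CPM) and H4C8 (265 and 293 CPM) lay above H4C4. Their exon models have 1409 and 1034 bases and that of H4C4 has 367, so the rank per kb of exon depends on the model.

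2 H4 genes with unique sequence were not called and had log2 fold changes near 0. H4C16, the only member on chromosome 12, was at 36.2 and 35.5 CPM in the non-silencing and at 33.5 and 35.6 CPM in the ILF2 shRNA libraries. The groups overlapped, and its log2 fold change of -0.05 had a 95% interval of -0.21 to 0.10, which does not reach the family's median of -0.41. H4C6 in the HIST1 cluster was at 10.8 and 11.2 against 9.29 and 11.7 CPM, again with overlap, and its log2 fold change was -0.06 (-0.26 to 0.13), or 0.10 without ILF2 shRNA replicate 1. The exon model of H4C16 is 2578 bases long against 312 coding bases, so its count also takes reads from outside the coding part. H4C7 and H4C13 had 3 counts or fewer in every library and were not tested. Among core histone genes with an exon model of 1000 bases or more, 11 of 15 tested were lower with a median of -0.35, and among shorter ones 35 of 41 with a median of -0.44.

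H4C14 and H4C15, which have no unique window, were at 2.12 and 2.01 against 1.54 and 1.81 CPM and at 3.08 and 2.36 against 1.99 and 2.28 CPM. The groups did not overlap in either, and their log2 fold changes were -0.30 (-0.63 to 0.03) and -0.35 (-0.66 to -0.03; edgeR adjusted p = 0.11). H4C15 was called without non-silencing replicate 2 (log2 fold change -0.52, edgeR adjusted p = 0.047). H4C11 and H4C12, with 8.70% and 8.96% of windows unique, were called at log2 fold changes of -0.46 and -0.41. H4C12 had an edgeR adjusted p of 0.016. The call of H4C12 was lost with DESeq2 (DESeq2 adjusted p = 0.13), without non-silencing replicate 2 (edgeR adjusted p = 0.39) and without ILF2 shRNA replicate 1 (edgeR adjusted p = 0.093).

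**Figure D2:**
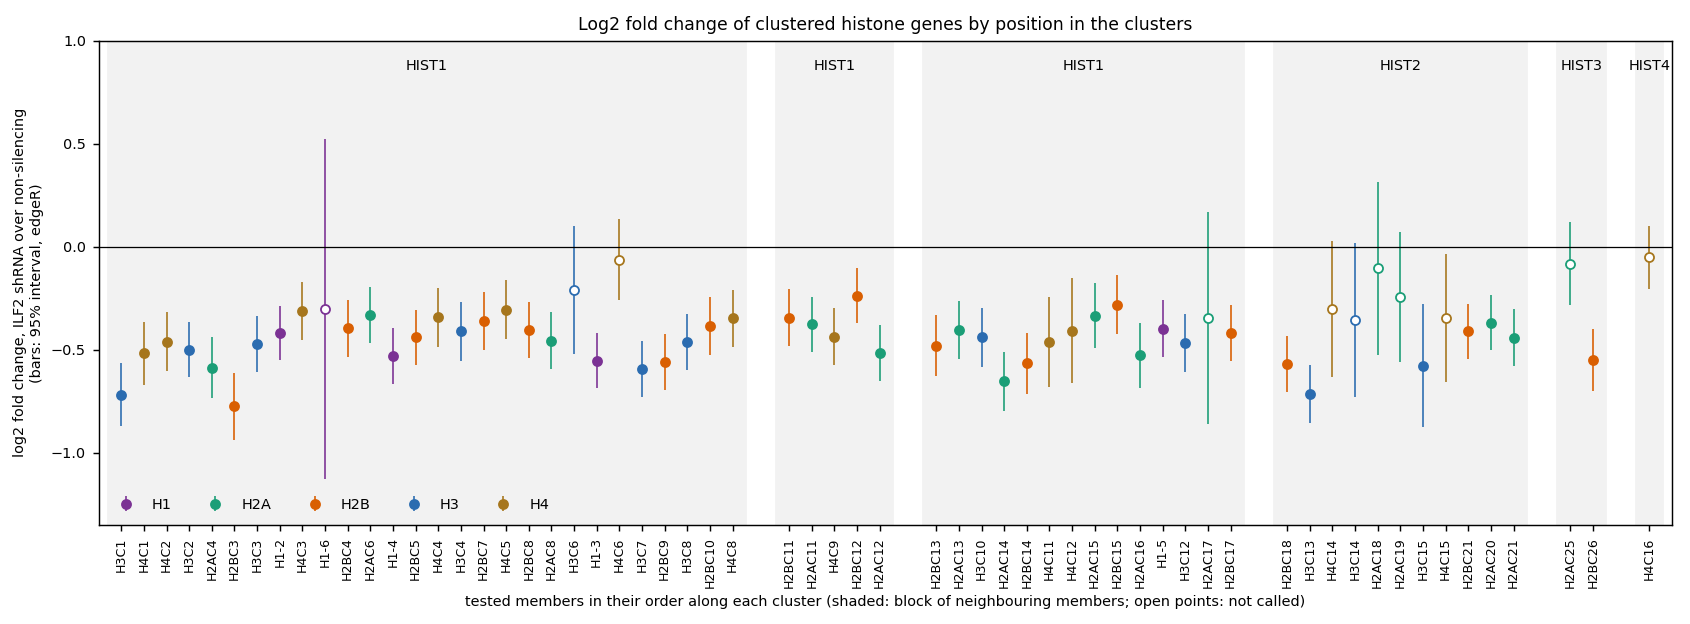
Log2 fold change with its 95% interval (edgeR) of each tested member, in gene order along the clusters; colours give the class and open points were not called. All 61 points lie below 0, and the intervals of 50 called members end below it.

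H2B was the only class in which every tested gene was called, 16 of 16 lower. Its median was -0.42 on the log2 scale, close to the family's -0.41. Each tested H2B gene had unique windows and a mean over all libraries of 34.4 CPM or more. Of the 11 members not called, 5 had no unique window, and only H4C16 lay above that level, at 35.2 CPM. Whether H2B differed from the other classes beyond level and unique windows was not tested. H2B pairs with H2A in the dimers that flank the tetramer. The summed level of H2B went from 3544 and 3477 CPM to 2464 and 2771 CPM, or 74.6% of the non-silencing mean. H2BC3 had the largest fall of the family. It was at 43.6 and 43.3 CPM against 22.8 and 27.9 CPM with ILF2 shRNA, a log2 fold change of -0.78 (-0.94 to -0.61; edgeR adjusted p = 5.8e-11). H2BC9, the most abundant H2B gene per kb of exon, was at 348 and 349.6 against 219.5 and 253 CPM, with a log2 fold change of -0.56 (-0.70 to -0.42; edgeR adjusted p = 3.5e-09).

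H2BC12 had the smallest fall among the 50 called members. It was at 420.3 and 405 against 332 and 368 CPM, which did not overlap, and its log2 fold change was -0.24 (-0.37 to -0.10; edgeR adjusted p = 0.0065). With the replicate number as a block the edgeR adjusted p was 0.065, and with non-silencing replicate 1, non-silencing replicate 2 or ILF2 shRNA replicate 1 left out it was 0.21, 0.089 and 0.082. H2BC15, next in size at -0.28 and named after its values were seen, lost its call without the same libraries (edgeR adjusted p = 0.063, 0.057 and 0.16) and stood at -0.15 without the last of them. H2BC6 had 4 to 16 counts a library and was not tested. H2BC1, a testis-type gene, had a count of 0 in every library, and the upper limit of 3 counts that a 0 allows is 0.040 to 0.047 CPM, for counting error only.

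The H2A genes fell in 11 of 15 tested cases, with a median log2 fold change of -0.38. Their summed level went from 1581 and 1537 CPM to 1129 and 1197 CPM. H2AC14 was at 85.1 and 84.3 against 50.7 and 56.9 CPM, a log2 fold change of -0.65 (-0.80 to -0.51; edgeR adjusted p = 1.8e-10). Only 39.0% of the read-length windows of H2AC14 are unique, so its values may not be those of this gene alone. H2AC20, the most abundant H2A gene per kb of exon, was at 268 and 261 against 206 and 203 CPM, a log2 fold change of -0.37 (-0.50 to -0.24; edgeR adjusted p = 1.9e-05). In both genes the groups were apart by more than the spread within them. H2AC15, named after its values were seen, was called at -0.34 but not without non-silencing replicate 1 (edgeR adjusted p = 0.081).

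4 H2A genes were not called, all below 10 CPM. H2AC25 was at 8.76 and 7.90 against 7.69 and 8.05 CPM, with overlap and a log2 fold change of -0.08 (-0.28 to 0.12). H2AC18 and H2AC19 have identical coding sequences and no unique window. They were at 1.86 and 1.17 against 1.71 and 1.13 CPM and at 2.52 and 2.26 against 1.84 and 2.20 CPM, with log2 fold changes of -0.10 (-0.52 to 0.32) and -0.24 (-0.56 to 0.07). H2AC18 turned positive without non-silencing replicate 1 (0.27), and also when ILF2 shRNA replicate 2 was left out (0.17). H2AC17 was at 0.891 and 0.722 against 0.785 and 0.491 CPM. Its row shares 71.0% of its exon bases with the row of H3C12 on the same strand, and fragments that fall on both rows are taken not to be counted. For the same reason H2AC7, 98.0% of whose exon bases lie in the row of H3C4, had 4 counts or fewer in each library and says nothing of that gene's level. The testis-type H2AC1 had a count of 0 in every library.

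**Figure D3:**
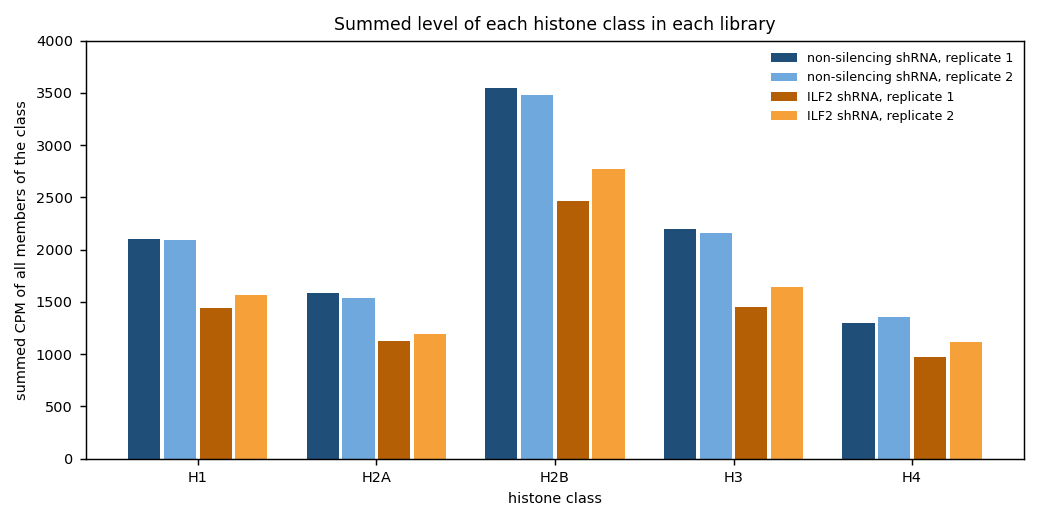
Summed CPM of all members of each histone class (bars from 0) in each of the 4 libraries. In each of the 5 classes both ILF2 shRNA bars are below both non-silencing bars, and the ILF2 shRNA mean is 71.0% (H3) to 78.7% (H4) of the non-silencing mean.

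Many H2A and H2B genes lie head to head and share the stretch between their starts. With at most 500 bases between coding starts, 12 such pairs were found, and 12 of 12 joined an H2A with an H2B gene. Both genes were tested in 10 pairs and both were lower in 8. In 8 of the 10 pairs the log2 fold changes of the partners differed by 0.03 to 0.09. Among these is the pair of H2AC17 and H2BC17, where H2AC17 lay below 1 CPM with an interval of -0.86 to 0.17. Differences between members that are not partners were not compared. The pair of H2AC25 and H2BC26 in the HIST3 cluster, with 312 bases between coding starts, differed by 0.47. H2BC26 was at 63.6 and 60.1 CPM against 39.3 and 45.3 CPM, a log2 fold change of -0.55 (-0.70 to -0.40; edgeR adjusted p = 6.7e-08), and H2AC25 is given above at -0.08. The intervals of the partners did not overlap, but the difference between the genes was not tested. H2BC12 (-0.24) and its partner H2AC12 (-0.52), which was named after its values were seen, differed by 0.28. In H2BC26 and H2BC12, 72.4% and 76.1% of the read-length windows are unique, against 100% in H2AC25 and H2AC12. The values of these H2B genes may thus not be theirs alone.

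The region before H2BC26, which is also the region before H2AC25 read from the other side, is shown for this pair, with that of H2BC3, the member with the largest fall, and of H4C16, the member nearest to 0. The 200 bases before the start are printed as above, from RefSeq on GRCh37.
H2BC26, chr1:228645604-228645803, plus strand: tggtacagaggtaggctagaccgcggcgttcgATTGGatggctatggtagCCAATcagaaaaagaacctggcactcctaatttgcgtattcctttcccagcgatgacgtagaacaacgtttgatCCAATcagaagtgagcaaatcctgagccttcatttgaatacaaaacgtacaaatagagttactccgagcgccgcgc
H2BC3, chr6:26043942-26044141, minus strand: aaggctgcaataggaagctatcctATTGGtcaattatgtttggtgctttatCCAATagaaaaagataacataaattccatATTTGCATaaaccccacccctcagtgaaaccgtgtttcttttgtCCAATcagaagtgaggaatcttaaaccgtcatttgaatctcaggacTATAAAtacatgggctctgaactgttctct
H4C16, chr12:14924066-14924265, minus strand: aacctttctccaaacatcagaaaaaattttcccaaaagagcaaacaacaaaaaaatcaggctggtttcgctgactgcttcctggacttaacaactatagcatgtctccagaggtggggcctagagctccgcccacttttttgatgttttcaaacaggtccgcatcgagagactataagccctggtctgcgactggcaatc
H2BC3 holds the octamer, the CCAAT box on both strands and a TATA element. H2BC26 holds the CCAAT box on both strands and none of the other motifs, and in H4C16 these 200 bases hold none of the motifs. RefSeq promoters were found for 65 of 70 members, those of H2AC12, H3C11, H3C12, H4C1 and H4C3 having no entry. Searched on both strands, the CCAAT box was in 84.6% of members' promoters against 35.7% of all 27305 promoters of this length. The TATA element was in 43 of the 65 (66.2%) against 3264 of all, and the octamer in 40.0% against 1.80%. The octamer was in 68.8% of H2A and 77.8% of H2B promoters and in 0 of 6 H1 and 0 of 13 H4 promoters. The CCAAT box was in all H1, H2A, H2B and H3 promoters searched but in 3 of 13 H4 promoters. The RefSeq promoter of H3C4 is the same stretch as that of H2AC7 (chr6:26199472-26199771), so it was counted for both genes. It holds the octamer, the only one among the 12 H3 promoters. The RefSeq promoter of H3C6 (chr6:26224156-26224455) does not reach the row of that gene, which starts at 26225383. Of members called lower and members not called, the TATA element was in 30 of 46 and 6 of 11, the CCAAT box in 40 of 46 and 8 of 11, and the octamer in 21 of 46 and 1 of 11. The classes differ in these shares, and partners of a pair share a region. Of the 11 members not called, 5 have no unique window, so that their counts are uncertain, and their promoters match 2 places in GRCh37. The difference between called and not called members was not tested. No match says only that these letters are not in this window.

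By cluster, the fall was seen on chromosomes 6 and 1. In HIST1 on chromosome 6, 43 of 47 tested genes were lower with a median log2 fold change of -0.42, and its members form 3 blocks separated by more than 300 kb. The blocks hold 34, 5 and 16 members, of which 25 of 28, 5 of 5 and 13 of 14 tested were lower, with medians of -0.43, -0.38 and -0.43. In HIST2 on chromosome 1, 3.78 Mb from ILF2, 6 of 11 were lower, and its summed level went from 1418 and 1352 CPM to 963 and 1030 CPM, a log2 ratio of -0.48. The 5 HIST2 genes not called are among the 6 copies with no unique window. Its other called genes were H2BC18 (473 and 445 against 292 and 327 CPM; log2 fold change -0.57, edgeR adjusted p = 1.7e-09), H2BC21 (381 and 359 against 270.3 and 286 CPM; -0.41), H2AC21 (187 and 187 against 129 and 147 CPM; -0.44), and H2AC20, H3C13 and H3C15 as given above. In HIST3, also on chromosome 1, H2BC26 was lower and H2AC25 was not called, and HIST4 on chromosome 12 holds H4C16 alone.

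How far reads can be given to 1 gene differed between members. In 40 members every 76-base window was unique and no other row overlapped on the same strand. Of these, 33 were tested and 28 were lower, with a median log2 fold change of -0.44. Of the other 30 members, 28 were tested and 22 were lower, with a median of -0.41. Among these 30, the share of unique windows was 22.3% for H3C13, 34.5% for H2BC18 and 39.0% for H2AC14, all called lower. Of the exon bases of H2BC18, 18.8% also lie in another row on the same strand. The values of these genes are thus less surely those of 1 gene than the values of fully unique members. The 6 genes with no unique window were listed at 1.10 to 4.36 CPM per kb of exon in the non-silencing libraries, and their counts are uncertain, since a fragment with 2 equal places is taken not to be counted. The family's log2 ratio was -0.45 over the 40 fully unique members and -0.44 over all.

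**Figure D4:**
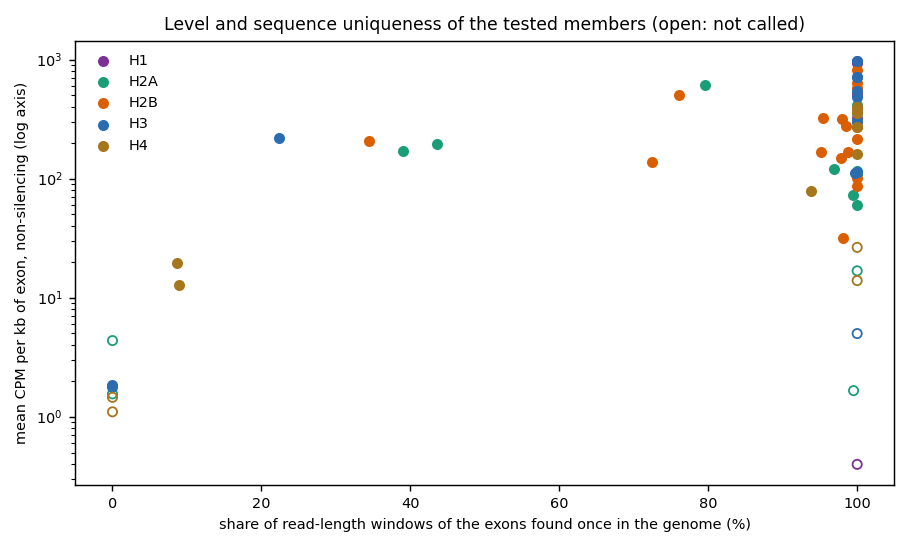
Mean non-silencing level in CPM per kb of exon (log axis) of each tested member against the share of its 76-base exon windows found once in the genome; open points were not called. The 6 members at 0% lie between 1.10 and 4.36 CPM per kb, and the called members at 100% are all above them.

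Of 27 genes that act in the transcription, processing or decay of histone mRNA, all tested, 4 were lower and 3 higher, against 10.1% and 10.2% of all tested genes, with a median log2 fold change of -0.10. CDK2, the kinase that acts on NPAT at the start of S phase, fell by 0.38 on the log2 scale (edgeR adjusted p = 9.1e-05). POU2F1, which binds the octamer, fell by 0.32 (edgeR adjusted p = 6.0e-04), CPSF3, the nuclease that cuts the 3' end, by 0.28 (edgeR adjusted p = 0.0019), and CASP8AP2, a component of the nuclear bodies, by 0.31 (edgeR adjusted p = 0.0025). The 3 higher genes, named after their values were seen, were LSM10 (0.28), XRN1 (0.22) and POU2AF1 (0.22). With the replicate number as a block 0 were higher, and without non-silencing replicate 2 the counts were 2 lower and 0 higher. NPAT, at 104 and 113 against 106 and 96.4 CPM, and SLBP, at 126 and 132 against 119 and 113 CPM, were not called, with log2 fold changes of -0.10 (-0.25 to 0.04) and -0.15 (-0.29 to -0.02; edgeR adjusted p = 0.10). Both were named after their values were seen.

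Replacement histone variants, which are not in the clusters, were read from the same fit. Of 11 tested, 6 were lower and 0 higher, against 10.1% and 10.2% of all tested genes, with a median log2 fold change of -0.27. MACROH2A1, whose product carries a large extra domain, was at 223 and 222 against 147 and 151 CPM (-0.58; edgeR adjusted p = 6.1e-10). H2AX, which is phosphorylated at DNA breaks, was at 219.5 and 186 against 151 and 152 CPM (-0.42; edgeR adjusted p = 6.1e-06). H2AZ2 and the centromere histone CENPA had log2 fold changes of -0.35 and -0.44. The list's count was 4 of 11 with the replicate number as a block, against 6.78% of all tested genes. With any 1 library left out its median ran from -0.36 to -0.17. Of 48 genes of DNA replication, which are expressed in the same phase of the cell cycle, 37 were lower and 0 higher. Their median was -0.27, and over all tested genes 10.1% were lower and 10.2% higher. E2F2, DSCC1, the histone chaperone ASF1B and MCM10 had log2 fold changes of -0.52, -0.55, -0.48 and -0.41. With the replicate number as a block 23 of the DNA replication genes were lower, against 6.78% of all tested genes. With any 1 library left out their median ran from -0.29 to -0.24. All members and lists share the same 4 libraries, and differences between the lists were not tested.

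**Figure D5:**
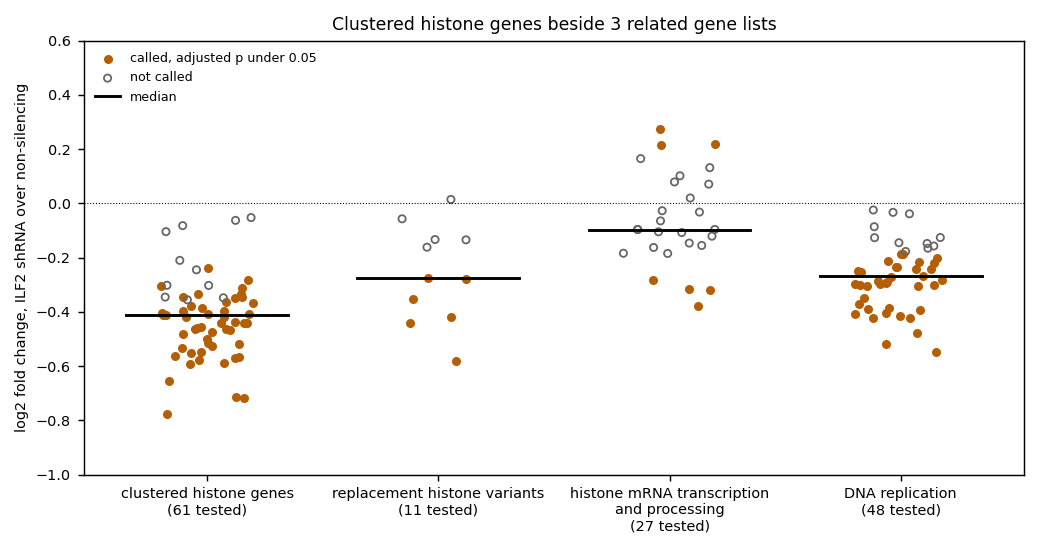
Log2 fold change of each tested gene (points; filled at an edgeR adjusted p under 0.05) and the median (bar) for the clustered histone genes and 3 related lists. The medians are -0.41, -0.27, -0.10 and -0.27 from left to right, and points above 0 that were called appear only in the list of histone mRNA transcription and processing.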

How the data were processed

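The authors deposited 1 file per library with raw counts of fragments per gene. Per the file headers, these counts were made with featureCounts (Subread 1.4.6-p2) from paired fragments over exons summed by gene, with strand setting 2 and the Ensembl release 75 annotation of GRCh37. The recorded command has no setting for fragments with several places or genes, and such fragments were assumed not to be counted. STAR 2.3.0 and SAMtools 0.1.19 are listed in the submitters' processing notes, while the design text names another aligner. The exon length per gene in the deposited files was used for levels per kb.

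Members were found by RefSeq synonyms and matched to rows by Ensembl ID (36), by coding sequence inside the row (31) or by promoter position (3). Groups and replicate numbers came from the sample titles. The main test was edgeR 4.0.16 (R 4.3.3), two-sided and quasi-likelihood, with TMM, the filterByExpr filter (minimum count 10) and Benjamini-Hochberg adjustment over 19142 genes, with calls at an adjusted p under 0.05. The 2 libraries per group leave 2 residual degrees of freedom, and the biological coefficient of variation was 5.38%. The script was tested on simulated data, with 50 genes changed at each size. Of these, 42% were recovered at a log2 change of 0.3, 86% at 0.5 and 100% at 1 and 1.5. Of the 174 calls in the simulation, 10 were of unchanged genes. Windows of 76 bases were counted in GRCh37 on both strands. Promoters are RefSeq's, and 59 of 65 matched 1 place in GRCh37.

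The members and lists were chosen with earlier results of these data known. Named members were, in each class, the smallest and the largest adjusted p and the highest level per kb, all of HIST2 to HIST4, all not called, and testis-type genes, and from each list up to 4 genes with the smallest adjusted p. H1-2, H1-5 and H4C11 were also named after their values were seen. Alternatives were DESeq2 1.42.0, limma-voom (limma 3.58.1), other size factors and filters, an exon-length trend removed, a replicate block and each library left out. Fully unique members alone were tested as an alternative chosen after seeing the data.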

Additional observations from a re-analysis of the deposited data

How the results depend on the processing

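Of the 50 calls, 41 held in every alternative run and 47 in every one that kept all libraries. DESeq2 lost H3C15 and H4C12, and the replicate block lost H2BC12. Same-numbered libraries did not deviate together (r = -0.025 over 19142 genes), so the numbers were not taken to pair the samples. With the replicate block 49 members were lower and 0 higher, with a median of -0.42, and over all genes 1297 were lower and 1291 higher in place of 1925 and 1960. Fully unique members alone gave 28 lower of 33, and a HIST3 log2 ratio of -0.079, since H2BC26 is left out. In the lists, the replicate block gave 0 higher in histone mRNA transcription and processing, also with the exon-length trend removed, and 23 lower in DNA replication. Over all tested genes the block gave 6.74% higher and 6.78% lower, and 6.86% higher with the trend also removed. The DNA replication median was -0.27 with upper-quartile factors and -0.28 without a filter. The cause of these changes was not tested.

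With 1 library left out in turn, the members' median log2 fold change ranged from -0.49 to -0.36. The log2 ratios of sums ranged from -0.52 to -0.36 for the family and for HIST1, from -0.54 to -0.42 for H1, from -0.51 to -0.34 for H2B and from -0.59 to -0.41 for H3. HIST4 ranged from -0.10 to -0.0084. The list of histone mRNA transcription and processing ranged from 2 to 4 lower and 0 to 4 higher, and DNA replication from 17 to 33 lower with medians from -0.29 to -0.24. Signs turned in H3C14 (-0.68 to 0.077, positive without non-silencing replicate 1), H2AC18 (-0.43 to 0.27, the latter without non-silencing replicate 1, and 0.17 when ILF2 shRNA replicate 2 was left out), H1-6 (-0.63 to 0.11, positive without non-silencing replicate 2) and H4C6 (-0.24 to 0.098, positive without ILF2 shRNA replicate 1), none of which was called with all libraries. When 1 library is left out, the lone library is assumed to vary like the others. Below about 1 CPM, as for H1-6 and H2AC17, counting error widens the intervals.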

Other observations

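Pseudogenes of the family were left out of the members. Of 19 such rows in the files, 8 were tested, 1 was lower and 0 were higher, where 10.1% of all tested genes were lower. The lower one, H2BP1, named after its values were seen, was at 0.945 and 0.902 CPM in the non-silencing libraries and at 0.533 and 0.549 CPM in the ILF2 shRNA libraries (log2 fold change -0.77, 95% interval -1.27 to -0.27; edgeR adjusted p = 0.021). At this level counting error is a large part of its spread.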
